A study of Mus musculus with 21 samples.

Results

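Polycomb repressive complex 2 (PRC2) is described here through the RNA levels of 10 of its subunits and cofactors in c-kit+ bone marrow cells of C57BL/6 mice. The members were taken by gene name from a table of raw read counts with 54532 genes: Ezh1, Ezh2, Eed, Suz12, Rbbp4, Rbbp7, Mtf2, Phf19, Jarid2 and Aebp2. All 10 were found, and all 10 passed the filter on low counts that left 16262 genes. RNA was sequenced in 11 libraries of 4 genotypes: 3 WT, 2 Asxl1-/-, 3 Jak2V617F and 3 Asxl1-/-Jak2V617F. The Asxl1-/- animals are labelled as null for Asxl1, a chromatin regulator gene often mutated in myeloid disease. Jak2V617F is an activating change of the kinase gene Jak2 that is known from myeloproliferative neoplasms, and Asxl1-/-Jak2V617F carries both. Marrow was flushed from leg bones, red cells were lysed, and cells that bind CD117 (c-kit) beads were kept by magnetic separation. All 4 genotypes therefore share the strain and the bead selection. The sources used here do not give the deleted exons of Asxl1, what drives the alleles or the age of the mice.

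PRC2 places methyl groups on lysine 27 of histone H3, a mark that keeps developmental genes silent. Ezh2 or its paralogue Ezh1 is the catalytic subunit, Suz12 and Eed hold it in an active form, and Rbbp4 or Rbbp7 binds histones. Accessory proteins divide the complex into forms: PRC2.1 carries Mtf2, Phf19 or Phf1, and PRC2.2 carries Jarid2 and Aebp2. In blood progenitors Ezh2 is known for its high level in dividing cells and Ezh1 for its persistence in cells that divide little, and Asxl1 is known to interact with this system.

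The promoters of the members were searched for some exact words that E2F factors bind, since E2F factors are known to drive Ezh2 in dividing cells. RefSeq promoters on GRCm38.p6 (250 bases before to 50 after the start site, 300 bases in all) matched all 10 members, with 14 start sites. An E2F word (TTTGGCGC, TTTGCCGC, TTTCGCGC or TTTCCCGC, on either strand) was found for Ezh2, Suz12 and Phf19. Of all 32851 mouse promoters of that length, 2.26% held one. The other 7 members had none of these words in their windows, Ezh1 included. Only exact words were counted, so a near match such as GTTGGCGC in the Rbbp4 window was not. The 3 promoters with a word are printed with that of Ezh1 for comparison with its paralogue, 5′ to 3′ on the gene's strand, with the E2F word in capitals. They are chr11:101226414-101226713 (minus strand, Ezh1), chr6:47594981-47595280 (minus strand, Ezh2), chr11:79992856-79993155 (plus strand, Suz12) and chr2:34913927-34914226 (minus strand, Phf19).
Ezh1: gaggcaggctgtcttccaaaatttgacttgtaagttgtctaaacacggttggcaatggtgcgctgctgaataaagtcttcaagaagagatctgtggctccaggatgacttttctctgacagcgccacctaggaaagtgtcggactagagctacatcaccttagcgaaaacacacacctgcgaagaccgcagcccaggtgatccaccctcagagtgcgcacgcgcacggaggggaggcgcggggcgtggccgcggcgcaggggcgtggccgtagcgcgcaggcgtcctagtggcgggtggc
Ezh2: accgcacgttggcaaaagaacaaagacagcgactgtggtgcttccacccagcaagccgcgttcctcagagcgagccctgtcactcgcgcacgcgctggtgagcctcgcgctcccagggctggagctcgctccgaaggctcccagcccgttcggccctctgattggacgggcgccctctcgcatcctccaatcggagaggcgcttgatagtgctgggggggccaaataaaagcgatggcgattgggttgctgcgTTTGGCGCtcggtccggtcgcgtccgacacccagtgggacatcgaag
Suz12: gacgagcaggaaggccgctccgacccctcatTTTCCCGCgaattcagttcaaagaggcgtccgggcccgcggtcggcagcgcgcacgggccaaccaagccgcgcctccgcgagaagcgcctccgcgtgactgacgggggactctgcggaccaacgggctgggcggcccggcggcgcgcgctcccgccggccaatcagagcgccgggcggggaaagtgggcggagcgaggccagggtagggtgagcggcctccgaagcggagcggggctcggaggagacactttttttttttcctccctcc
Phf19: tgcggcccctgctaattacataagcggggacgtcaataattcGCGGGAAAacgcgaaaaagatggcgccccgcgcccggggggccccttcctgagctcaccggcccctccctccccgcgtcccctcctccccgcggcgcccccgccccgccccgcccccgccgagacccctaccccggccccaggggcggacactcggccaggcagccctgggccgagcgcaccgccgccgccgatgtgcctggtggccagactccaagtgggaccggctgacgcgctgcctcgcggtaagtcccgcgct
The word lies 3 bases after the start site of Ezh2, at bases 254 to 261 of the window. In Suz12 it begins at position -219 from the start site, and in Phf19 at position -208, where it reads TTTCCCGC on the other strand. The GC content of these promoters was 59.3% for Ezh1, 64.3% for Ezh2, 71% for Suz12 and 74.3% for Phf19, beside a median of 52.7% over all promoters. The CCAAT word, on either strand, was found 3 times in the Ezh2 promoter and 1 time in that of Suz12, and 37.4% of all promoters held it. The STAT word TTCNNNGAA was in no member's window and in 8.3% of all promoters. Directions of the 3 genes with an E2F word in the RNA data are given further on, and a part of E2F factors in them was not tested.

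Total counts ran from 16198011 to 19196283 per library. Asxl1 read 161 to 164 CPM in WT (counts scaled to library size, with the trimmed mean of M values, TMM) and 89.0 to 97.0 in Asxl1-/-. It read 132 to 196 CPM in Jak2V617F and 93.5 to 100.4 in Asxl1-/-Jak2V617F, so that reads of the gene remained in every library labelled Asxl1-/- or Asxl1-/-Jak2V617F. The difference passed edgeR's quasi-likelihood test against Jak2V617F (log2 fold change -0.70 ± 0.12 SE, adjusted p = 0.000748) and against WT (-0.80 ± 0.14, adjusted p = 0.0042). Leaving out Asxl1-/- 1 ended the call against WT (-0.73, adjusted p = 0.071), as did a term for sex (-0.60, 0.136). Kit, which encodes the selected receptor, lay between 219 and 338 CPM in all 11 libraries. Jak2 read 71.7 to 83.4 CPM in WT, 99.8 to 103 in Asxl1-/-, 121 to 129 in Jak2V617F and 86.1 to 97.3 in Asxl1-/-Jak2V617F, and gene counts do not show which of its alleles is expressed. Both Asxl1-/- libraries and Jak2V617F 2 carried Y-linked reads (176 to 263 CPM), and the other 8 carried none, so that the sex of the mice and the Asxl1-/- genotype can hardly be told apart. Rbbp7 is X-linked.

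The Jak2V617F libraries stood apart from the other 8, on a first principal component that held 51.5% of the variance. They read 98.5 to 105 on it, against -47.3 to -17.8 elsewhere. All 10 granulocyte markers fell in Jak2V617F against WT, from a summed 44692 to 60100 CPM to 2549 to 5597. The other groups read 40462 to 67932 CPM for that list. Of 13 erythroid markers 11 rose, from 1172 to 1925 CPM to 4579 to 5903, and 7 of 8 dendritic cell and MHC class II markers rose, from 236 to 429 CPM to 2638 to 3604. All 9 monocyte and macrophage markers fell (4273 to 6770 CPM in WT, 287 to 766 in Jak2V617F), as did all 6 of the mast cell and basophil list. Of all genes 24.4% were called higher and 29.2% lower in Jak2V617F against WT. No marker of these 5 lists was at 0 in any library. Of 6 progenitor markers 4 fell and 1 rose in Jak2V617F against WT, from a summed 990 to 1115 CPM to 690 to 798, with Cd34 at -2.91 and Meis1 at -1.93 on the log2 scale. Of 6 tested megakaryocyte markers 4 fell there (170 to 207 CPM in WT, 50.6 to 54.0 in Jak2V617F), and a seventh, Gp1bb, was at 0 in 9 libraries. In Asxl1-/-Jak2V617F against WT, 3 of 9 monocyte and macrophage markers fell (C1qa -3.97, C1qb -3.23 and Adgre1 -1.94) and Cd14 rose (1.71), with summed levels of 3347 to 3641 CPM in Asxl1-/-Jak2V617F. Of the megakaryocyte markers 2 of 6 fell there, beside 6.76% lower and 8.3% higher calls among all genes. These markers moved with the Jak2V617F and Asxl1-/-Jak2V617F results that follow, and their part in them was not tested. In such bulk samples, fewer cells of a type and less RNA per cell cannot be told apart.

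Per kilobase of gene model, the histone binder gene Rbbp7 had the highest level of the 10 in every genotype, at 85.2 ± 3.9 CPM per kilobase in WT (SD, n = 3). In WT it was followed by the scaffold gene Suz12 (39.98 ± 2.30), Rbbp4 (34.4 ± 1.4), Ezh2 (28.6 ± 0.4), Eed (20.8 ± 2.4) and Mtf2 (18.5 ± 0.4). Aebp2 (10.6 ± 0.2), Jarid2 (9.14 ± 0.60), Ezh1 (5.83 ± 0.61) and Phf19 (4.59 ± 0.52) were lowest. Of the neighbours in that order, the WT libraries of Ezh1 and Phf19 overlapped (between 5.16 and 5.19), and those of the other neighbours did not. The order of the means was the same in Jak2V617F and Asxl1-/-Jak2V617F, and in Asxl1-/- Rbbp4 (42.1) stood above Suz12 (38.3). The gene models hold every exon of every isoform, so the values per length are approximate. In the plot of levels per kilobase, Phf19 in Jak2V617F is set below all other points, at 1.69 ± 0.18.

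**Figure D1:**
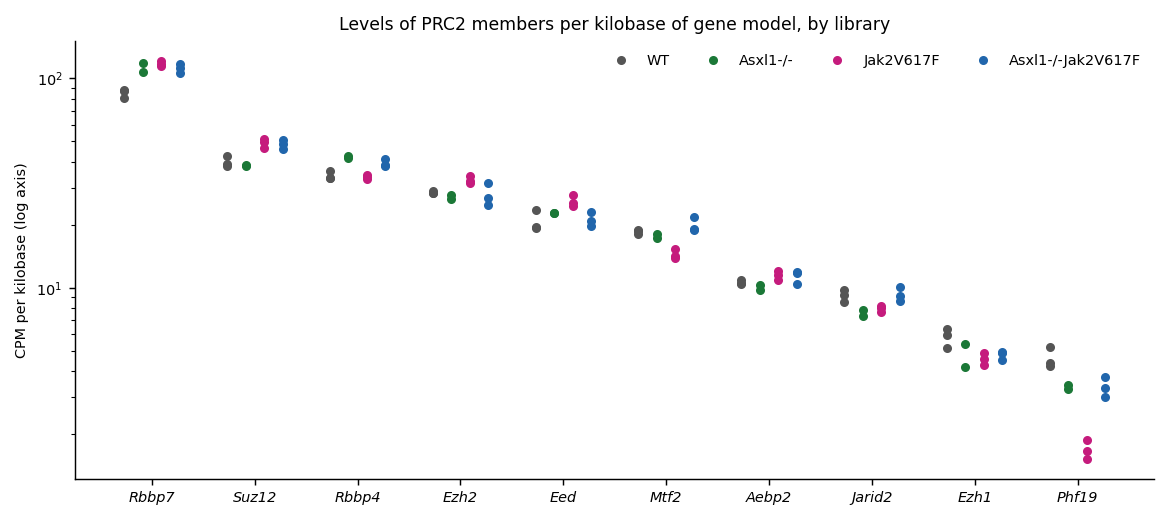
Levels of the 10 members per kilobase of gene model (CPM per kilobase, log axis) in 11 libraries, 1 point each, coloured by genotype and ordered by the WT mean. Rbbp7 is highest in every library, and the 3 Jak2V617F points of Phf19 lie between 1.52 and 1.88, below every other point.

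In Jak2V617F against WT, 6 of the 10 members passed the test, 3 up and 3 down. Rbbp7, Eed and Suz12 rose, and Phf19, Mtf2 and Ezh1 fell, with Phf19 at 0.368 of its WT level. Of all genes tested 53.5% passed in this comparison, so the members' share lies near the background. Higher calls made up 24.4% of all genes and lower calls 29.2%. The median size of the members' log2 fold change was 0.31, and that of all genes 0.56. Among the 8310 genes with a mean CPM of 16.3 or more, the level of the lowest member, that median was 0.44 and 65.4% passed. The groups' libraries did not overlap for 9 of 10 members, and for 61% of all genes.

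What the Asxl1-/- genotype changes on the mutant Jak2 background was read from Asxl1-/-Jak2V617F against Jak2V617F, where 6 of 10 members passed. Phf19, Mtf2, Jarid2 and Rbbp4 rose, and Eed and Ezh2 fell. The share of all genes called was 44.3% (24.5% higher, 19.8% lower), which leaves the members close to the background. With library totals in place of TMM the split of calls was 2 up and 3 down. The members' median size of change was 0.22 on the log2 scale, beside 0.46 for all genes, and 5 of 10 members had groups that did not overlap, beside 53.9% of all genes. Among the 8310 genes with a mean CPM of 16.3 or more, the median size was 0.32 and 53.2% passed. Ezh1, Suz12 and Aebp2 differed by less than 1 SE, and Rbbp7 by about 1 SE.

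In Asxl1-/- against WT, 2 of 10 members passed, Rbbp4 and Rbbp7, both up, while 22.5% of all genes passed (11.3% higher, 11.2% lower). The 2 groups did not overlap for 7 of 10 members, beside 57.2% of all genes. With library totals in place of TMM the calls were 0 up and 4 down, and the median of all genes moved from -0.01 to -0.17. In Asxl1-/-Jak2V617F against WT 3 members passed, Suz12 and Rbbp7 up and Phf19 down, beside 15.1% of all genes (8.3% higher, 6.76% lower), and 6 members did not overlap, beside 36.5%. The split there was 1 up and 1 down with library totals, and 2 up and 0 down with median-of-ratios scaling. Against Asxl1-/-, the Asxl1-/-Jak2V617F libraries gave 1 call, Suz12 (up), beside 5.53% of all genes (3.31% higher, 2.22% lower), and 5 members did not overlap, beside 43.8% of all genes. Among the 8310 genes with a mean CPM of 16.3 or more, 29.3% passed in Asxl1-/- against WT. In Asxl1-/-Jak2V617F 19.9% of them passed against WT and 6.32% against Asxl1-/-. These comparisons share libraries with each other and with the 2 above, so they are not independent.

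**Figure D2:**
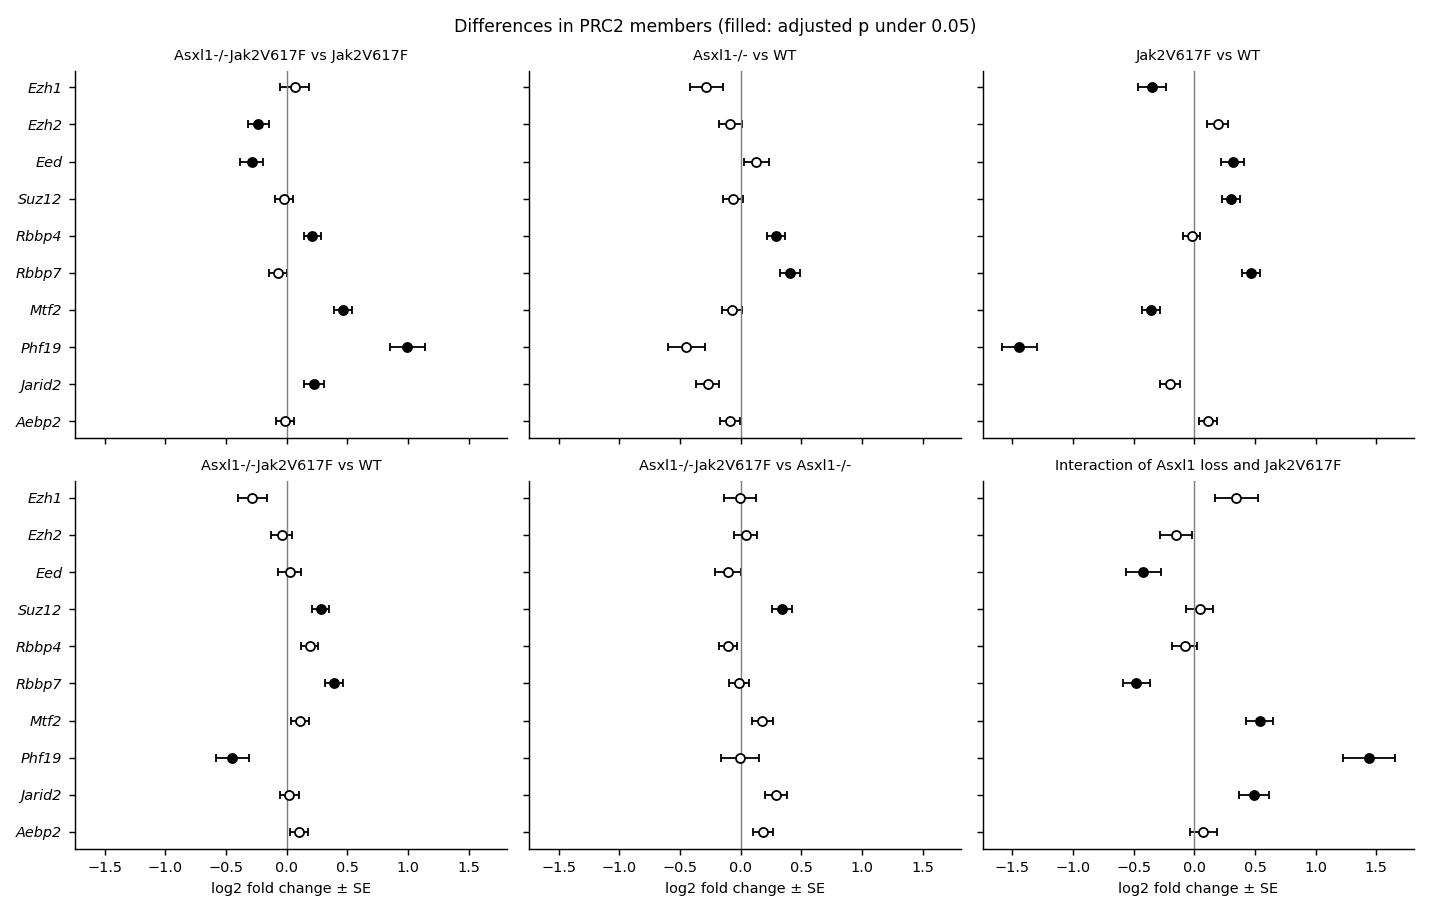
Log2 fold change ± SE of the 10 members in 5 comparisons and the interaction, from edgeR's quasi-likelihood test over 16262 genes. Filled points passed at an adjusted p under 0.05: 6 in each of the Jak2V617F comparison with WT and the Asxl1-/-Jak2V617F comparison with Jak2V617F, and 5 in the interaction.

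The interaction asks whether the Asxl1-/- genotype went with different changes on the Jak2V617F and WT backgrounds. It passed for 5 of 10 members, beside 41.6% of all genes (23.7% positive, 17.9% negative) and 52.3% of the 8310 genes with a mean CPM of 16.3 or more. With library totals 3 were positive and 1 negative. Phf19 (1.44 ± 0.21, adjusted p = 0.000411), Mtf2 (0.54 ± 0.11, adjusted p = 0.0034) and Jarid2 (0.49 ± 0.12, adjusted p = 0.00855) were positive. Eed (-0.42 ± 0.14, adjusted p = 0.0329) and Rbbp7 (-0.48 ± 0.11, adjusted p = 0.00561) were negative. The Phf19 value ran from 1.30 to 1.52 over 19 alternatives and passed in each. With a term for sex the calls of Mtf2 (adjusted p = 0.105), Rbbp7 (0.0636), Jarid2 (0.23) and Eed (0.54) were lost, and that of Eed also with library totals (0.0624), no filter (0.0503) or the length trend removed (0.0787). Eed was also lost without any one of Asxl1-/- 1 (-0.42, adjusted p = 0.0934), Asxl1-/- 2 (-0.42, 0.0879), Asxl1-/-Jak2V617F 1 (-0.37, 0.0722), Asxl1-/-Jak2V617F 2 (-0.43, 0.051) and WT 2 (-0.37, 0.0749). Jarid2 fell to 0.23 (adjusted p = 0.202) once the gene length trend was removed.

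Ezh1, the catalytic paralogue of quiescent cells, read 38.4, 44.5 and 47.2 CPM in the 3 WT libraries and 31.1 and 40.2 in the 2 Asxl1-/- libraries. It read 36.2, 31.7 and 34.0 in Jak2V617F and 33.7, 36.5 and 36.5 in Asxl1-/-Jak2V617F. Every Jak2V617F and Asxl1-/-Jak2V617F library lay below every WT library, and Asxl1-/- overlapped WT. In Jak2V617F the gene fell against WT (log2 fold change -0.35 ± 0.12, adjusted p = 0.0254), while Asxl1-/-Jak2V617F against WT read -0.29 ± 0.12 (adjusted p = 0.117). Leaving out one library ended the first call for Jak2V617F 2 (-0.26, adjusted p = 0.127), Jak2V617F 3 (-0.34, 0.0638), WT 2 (-0.33, 0.0692) and WT 3 (-0.29, 0.1). So did removing the gene length trend (-0.27, adjusted p = 0.06) and a sex term (-0.30, 0.0804).

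Ezh2, the main methyltransferase gene of dividing cells, read 189, 190 and 194 CPM in WT and 176 and 184 in Asxl1-/-. It read 210, 217 and 228 in Jak2V617F and 166, 178 and 212 in Asxl1-/-Jak2V617F. All 3 Jak2V617F libraries were above all WT libraries, and Asxl1-/-Jak2V617F 3 reached into the Jak2V617F range. The difference of Jak2V617F from WT was 0.19 ± 0.09 and did not pass (adjusted p = 0.0816), though it did in 5 alternatives, DESeq2 among them (0.24, adjusted p = 0.0263). Ezh2 fell in Asxl1-/-Jak2V617F against Jak2V617F by 0.24 ± 0.09 on the log2 scale (adjusted p = 0.0454). That call was lost in 8 of 15 alternatives, among them leaving out Asxl1-/-Jak2V617F 1 (-0.17, adjusted p = 0.168), Asxl1-/-Jak2V617F 2 (-0.22, 0.117), Jak2V617F 1 (-0.27, 0.0539), Jak2V617F 2 (-0.26, 0.0634) or Jak2V617F 3 (-0.21, 0.118). The other 3 were a sex term (-0.24, adjusted p = 0.0819), no filter (-0.22, 0.0851) and the compared genotypes alone (-0.23, 0.0901).

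Within a library, Ezh2 exceeded Ezh1 per length by 4.94 ± 0.47 times in WT (SD, n = 3) and by 7.18 ± 0.62 times in Jak2V617F. The ratio was 5.11 and 6.32 in the Asxl1-/- libraries and 5.80 ± 0.57 in Asxl1-/-Jak2V617F. Every Jak2V617F library (6.47 to 7.61) lay above every WT library (4.58 to 5.48), and the highest Asxl1-/-Jak2V617F library (6.46) lay just under the lowest Jak2V617F library. The exact 2-sided permutation test of 3 against 3 libraries gave p = 0.1 for both comparisons, the smallest it can give (0.143 adjusted over the 20 ratio tests run).

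Eed, the subunit that reads the mark and stimulates the enzyme, read 74.0, 74.5 and 90.1 CPM in WT and 87.2 and 86.9 in Asxl1-/-. It read 93.8, 106 and 97.0 in Jak2V617F and 75.5, 79.4 and 87.8 in Asxl1-/-Jak2V617F. The Jak2V617F libraries were the 3 highest of the 11. Eed rose in Jak2V617F against WT (0.31 ± 0.09, adjusted p = 0.0145) and fell in Asxl1-/-Jak2V617F against Jak2V617F (-0.29 ± 0.09, adjusted p = 0.0264). The rise was lost without WT 2 (0.27, adjusted p = 0.0594) and with a sex term (0.26, 0.0549). The fall did not pass without Asxl1-/-Jak2V617F 1 (-0.24, adjusted p = 0.0974), Asxl1-/-Jak2V617F 2 (-0.28, 0.0682) or Jak2V617F 2 (-0.25, 0.0756), or with a sex term (-0.24, 0.0922).

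Suz12, the scaffold subunit, read 211, 189 and 193 CPM in WT and 188 and 191 in Asxl1-/-. It read 254, 230 and 245 in Jak2V617F and 239, 228 and 252 in Asxl1-/-Jak2V617F. The 6 libraries labelled Jak2V617F or Asxl1-/-Jak2V617F were all above the other 5. Suz12 rose in Jak2V617F against WT by 0.30 ± 0.07 (adjusted p = 0.00483), which held in all 15 alternatives (0.27 to 0.39). It rose in Asxl1-/-Jak2V617F against WT (0.28 ± 0.07, adjusted p = 0.0298) and against Asxl1-/- (0.34 ± 0.08, adjusted p = 0.0364). Against WT it did not pass without Asxl1-/-Jak2V617F 1 (0.29, adjusted p = 0.0643), Asxl1-/-Jak2V617F 3 (0.24, 0.0588), WT 2 (0.25, 0.103) or WT 3 (0.26, 0.104), with library totals (0.20, 0.0898) or with the compared genotypes alone (0.30, 0.0532). Against Asxl1-/- it was lost without any one of the 5 libraries compared (0.30 to 0.39): Asxl1-/- 1 (adjusted p = 0.247), Asxl1-/- 2 (0.2), Asxl1-/-Jak2V617F 1 (0.0715), Asxl1-/-Jak2V617F 2 (0.0583) and Asxl1-/-Jak2V617F 3 (0.0716). With a sex term it read 0.22 (adjusted p = 0.546).

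Rbbp4 and Rbbp7 encode near-identical histone binders that PRC2 shares with NuRD, SIN3, CAF-1 and NURF. Rbbp7 read 254, 235 and 255 CPM in WT, 345 and 310 in Asxl1-/-, 353, 333 and 342 in Jak2V617F, and 310, 340 and 326 in Asxl1-/-Jak2V617F. All 8 libraries with a mutant genotype lay above all 3 WT libraries. It rose in Jak2V617F (0.47 ± 0.07, adjusted p = 0.000266) and Asxl1-/-Jak2V617F (0.39 ± 0.07, adjusted p = 0.0109) against WT, both in all 15 alternatives, and in Asxl1-/- (0.40 ± 0.08, adjusted p = 0.00749). The Asxl1-/- call was lost without Asxl1-/- 1 (0.34, adjusted p = 0.105), with library totals (0.24, 0.054), with a sex term (0.47, 0.091) and with the gene length trend removed (0.23, 0.062).

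Rbbp4 read 315, 294 and 293 CPM in WT and 304, 296 and 288 in Jak2V617F, which overlap. It read 372 and 364 in Asxl1-/- and 333, 358 and 336 in Asxl1-/-Jak2V617F, where all 5 libraries were above the other 6. The gene rose in Asxl1-/- against WT (0.29 ± 0.08, adjusted p = 0.0192) and in Asxl1-/-Jak2V617F against Jak2V617F (0.21 ± 0.07, adjusted p = 0.0253). The first call was lost without Asxl1-/- 1 (0.29, adjusted p = 0.144), Asxl1-/- 2 (0.31, 0.0822), WT 2 (0.27, 0.0566) or WT 3 (0.27, 0.0658), and with library totals (0.13, 0.245), a sex term (0.29, 0.207) or the compared genotypes alone (0.28, 0.0513). The second was lost without Asxl1-/-Jak2V617F 2 (0.17, adjusted p = 0.118), Jak2V617F 2 (0.20, 0.074) or Jak2V617F 3 (0.19, 0.0863), and with library totals (0.10, 0.259), a sex term (0.21, 0.0589) or no filter (0.22, 0.064). Asxl1-/-Jak2V617F against WT read 0.19 ± 0.07 and did not pass (adjusted p = 0.0811). It passed in DESeq2 (0.21, 0.0101), with the length trend removed (0.28, 0.0278), with the stricter filter (0.22, 0.0398) and without WT 1 (0.25, 0.0248).

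The ratio of Rbbp7 to Rbbp4 per length was 2.40 to 2.61 in WT, 2.57 and 2.79 in Asxl1-/-, 3.38 to 3.57 in Jak2V617F and 2.80 to 2.91 in Asxl1-/-Jak2V617F. The Jak2V617F libraries were highest, with no overlap, and the WT and Asxl1-/- libraries overlapped. The exact permutation p was 0.1 for Jak2V617F against WT and for Asxl1-/-Jak2V617F against Jak2V617F (adjusted p = 0.143). It was the same for Asxl1-/-Jak2V617F against WT and against Asxl1-/-, with Asxl1-/-Jak2V617F higher without overlap. Of the 21 tested genes of complexes that share these binders, 11 rose and 2 fell in Jak2V617F against WT, beside 24.4% and 29.2% of all genes. Those named by smallest adjusted p were Mta3 (0.90 ± 0.12), Chaf1b (0.70 ± 0.10), Mta1 (0.66 ± 0.11) and Gatad2a (0.53 ± 0.10). Mta3, Mta1 and Gatad2a encode NuRD subunits and Chaf1b a CAF-1 subunit. The median of the list was 0.22, beside -0.05 for all genes. Between Asxl1-/-Jak2V617F and Jak2V617F, 2 of these 21 rose and 5 fell (0 and 8 with library totals), beside 24.5% and 19.8% of all genes. Among those that fell were Mta3 at -0.75 ± 0.12, Mta1 at -0.45 ± 0.11, Chaf1b at -0.42 ± 0.10 and Mbd2 at -0.34 ± 0.08. The 2 that rose were Sin3a and Sin3b, not called with library totals (0.12, adjusted p = 0.215, and 0.14, 0.111). They were also the 2 that fell in Jak2V617F against WT (-0.28 ± 0.08 and -0.30 ± 0.07).

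**Figure D3:**
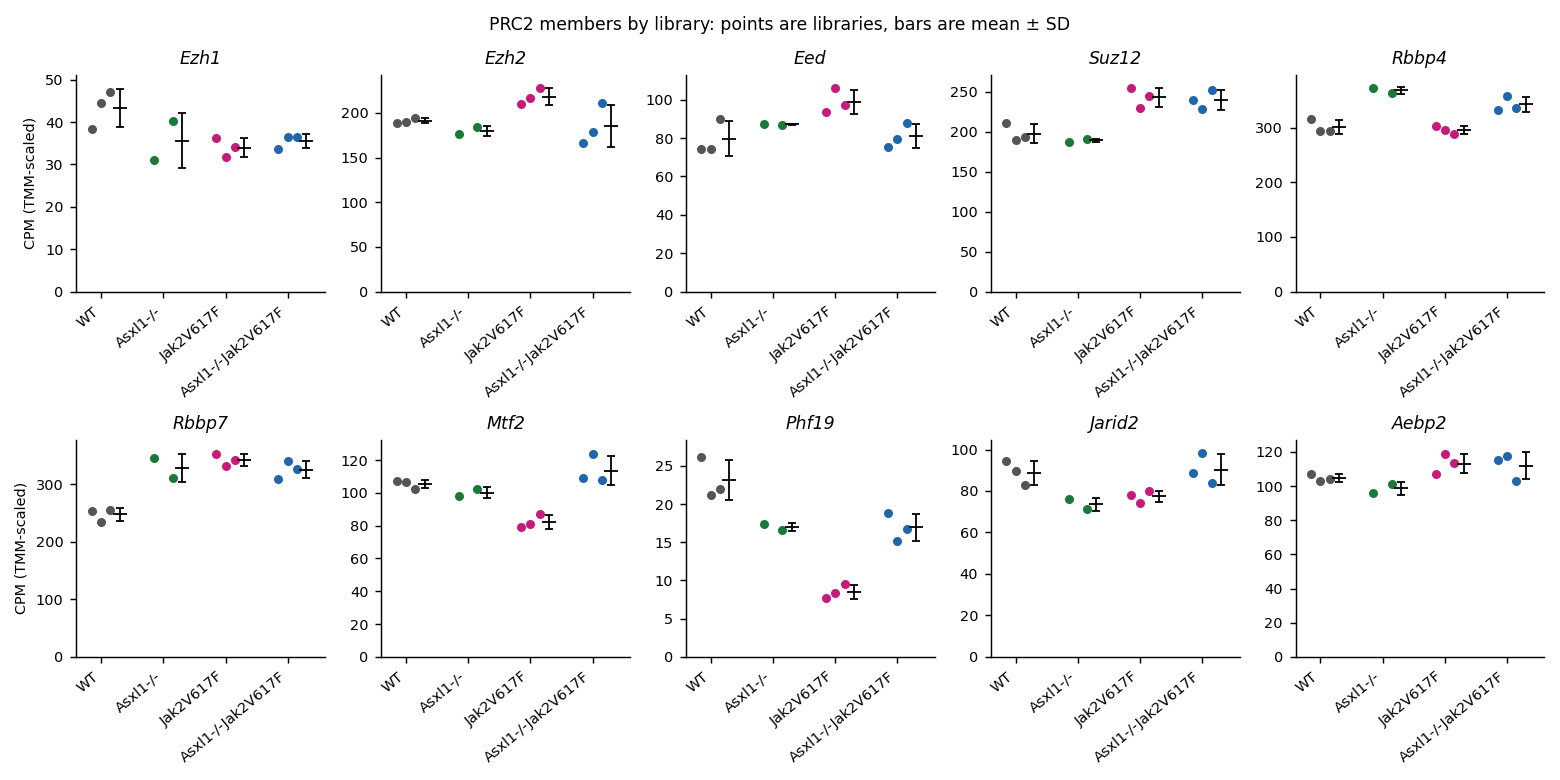
CPM (TMM-scaled) of the 10 members in each library, with 1 point per library and the mean ± SD of each genotype beside it, on axes that start at 0. Phf19 is lowest in the 3 Jak2V617F libraries (7.68 to 9.49 CPM), Suz12 is higher in the 6 libraries labelled Jak2V617F or Asxl1-/-Jak2V617F, and Rbbp4 is higher in the 5 labelled Asxl1-/- or Asxl1-/-Jak2V617F.

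Phf19, a PRC2.1 cofactor that binds trimethylated lysine 36 of histone H3 and brings PRC2 to active genes, varied most among the members. It read 26.1, 21.2 and 22.0 CPM in WT, 17.3 and 16.6 in Asxl1-/-, 7.68, 8.34 and 9.49 in Jak2V617F, and 18.9, 15.2 and 16.7 in Asxl1-/-Jak2V617F. WT was highest without overlap, Asxl1-/- and Asxl1-/-Jak2V617F overlapped each other, and Jak2V617F was lowest, with 143 to 180 reads per library. The highest library held 3.40 times the lowest, beside 1.23 to 1.57 times for the other 9 members. Phf19 fell in Jak2V617F against WT by 1.44 ± 0.14 on the log2 scale (adjusted p = 8.18e-06), and rose in Asxl1-/-Jak2V617F against Jak2V617F by 0.99 ± 0.14 (adjusted p = 0.000166). Both passed in all 15 alternatives, from -1.52 to -1.30 and from 0.88 to 1.07.

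The Asxl1-/-Jak2V617F libraries did not reach the WT level of Phf19: the difference was -0.45 ± 0.14 (adjusted p = 0.0488). This call was lost in 13 of 15 alternatives, and leaving out any one of the 6 libraries ended it: Asxl1-/-Jak2V617F 1 (-0.53, adjusted p = 0.0629), Asxl1-/-Jak2V617F 2 (-0.35, 0.186), Asxl1-/-Jak2V617F 3 (-0.44, 0.0841), WT 1 (-0.32, 0.148), WT 2 (-0.51, 0.0887) and WT 3 (-0.48, 0.1). Asxl1-/- against WT read -0.45 ± 0.16 and did not pass (adjusted p = 0.0598). That difference passed in DESeq2 (-0.44, adjusted p = 0.0392), with library totals (-0.61, 0.0177) and with the compared genotypes alone (-0.46, 0.049).

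Mtf2, the PRC2.1 cofactor that binds unmethylated CpG islands, read 107, 106 and 103 CPM in WT and 98.0 and 102 in Asxl1-/-. It read 79.0, 80.9 and 87.0 in Jak2V617F and 109, 124 and 108 in Asxl1-/-Jak2V617F. The Jak2V617F libraries were the 3 lowest of the 11 and the Asxl1-/-Jak2V617F libraries the 3 highest. Mtf2 fell in Jak2V617F against WT (-0.36 ± 0.08, adjusted p = 0.00189) and rose in Asxl1-/-Jak2V617F against Jak2V617F (0.46 ± 0.08, adjusted p = 0.000433), each in all 15 alternatives. Its gene model shares 2639 bases with Tmed5 on the other strand, which reached 129 CPM. As the sources used here give no strand setting for the counting, reads of those bases cannot be told apart.

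Mtf2 exceeded Phf19 per length by 3.63 to 4.43 times in WT, 5.002 and 5.448 times in Asxl1-/-, 8.11 to 9.10 times in Jak2V617F and 5.12 to 7.19 times in Asxl1-/-Jak2V617F. The Jak2V617F libraries were again outside the range of the others (exact permutation p = 0.1 against WT and against Asxl1-/-Jak2V617F, adjusted p = 0.143). The Asxl1-/- and Asxl1-/-Jak2V617F libraries were also above WT without overlap, each with the same exact p. Of 6 PRC2.1 cofactors, members Mtf2 and Phf19 included, 0 rose and 4 fell in Jak2V617F against WT. Of all genes 53.5% passed and 29.2% fell there, and 65.4% passed among the 8310 genes with a mean CPM of 16.3 or more, so that the share of the 6 lies near the background. Beside the members those that fell were Lcorl (-0.46 ± 0.11, adjusted p = 0.00383) and Phf1 (-0.55 ± 0.20, adjusted p = 0.0333). The Phf1 call was lost without Jak2V617F 1 (-0.54, adjusted p = 0.0801), Jak2V617F 3 (-0.37, 0.132) or WT 2 (-0.39, 0.149), and with the compared genotypes alone (-0.52, 0.0654). In Asxl1-/- against WT 0 of the 6 rose and 2 fell, beside 11.2% lower calls among all genes. These were Lcor (-1.12 ± 0.22, adjusted p = 0.00627) and Lcorl (-0.78 ± 0.13, 0.00311), and Lcorl did not pass with the length trend removed (-0.25, 0.136). In Asxl1-/-Jak2V617F against WT 2 fell, Phf19 and Phf1 (-0.85 ± 0.20, 0.0196), beside 6.76%. Of these 6, 3 rose in Asxl1-/-Jak2V617F against Jak2V617F, beside 24.5% of all genes, with Epop beside Mtf2 and Phf19 (0.75 ± 0.28, adjusted p = 0.0476). Epop lost its call without Asxl1-/-Jak2V617F 1 (0.86, adjusted p = 0.0517), Asxl1-/-Jak2V617F 2 (0.49, 0.216), Jak2V617F 1 (0.73, 0.101), Jak2V617F 2 (0.86, 0.0524) or Jak2V617F 3 (0.63, 0.136). So it did with median-of-ratios scaling (0.72, adjusted p = 0.0549), library totals (0.63, 0.0806), a replicate block (0.75, 0.0548), a sex term (0.88, 0.0509) or the compared genotypes alone (0.75, 0.0583).

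Jarid2, the PRC2.2 cofactor that helps the complex settle on chromatin, read 94.3, 89.5 and 82.7 CPM in WT and 75.9 and 71.4 in Asxl1-/-. It read 78.1, 74.3 and 79.8 in Jak2V617F and 88.6, 98.3 and 83.8 in Asxl1-/-Jak2V617F. The genotypes with 1 mutation were below WT without overlap, and the Asxl1-/-Jak2V617F libraries overlapped WT. Neither difference from WT passed: Asxl1-/- read -0.27 ± 0.09 (adjusted p = 0.0553) and Jak2V617F -0.20 ± 0.08 (adjusted p = 0.0592), and the Jak2V617F value passed without WT 3 (-0.25, adjusted p = 0.0427). The Asxl1-/- value passed in DESeq2 (-0.26, adjusted p = 0.0474) and with library totals (-0.44, 0.00674). The gene rose in Asxl1-/-Jak2V617F against Jak2V617F by 0.22 ± 0.08 (adjusted p = 0.0462), a call kept in 2 of 15 alternatives. It was lost without Asxl1-/-Jak2V617F 1 (0.23, adjusted p = 0.0778), Asxl1-/-Jak2V617F 2 (0.15, 0.22), Jak2V617F 1 (0.22, 0.084), Jak2V617F 2 (0.18, 0.16) or Jak2V617F 3 (0.24, 0.0684), and with library totals (0.11, 0.291).

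Aebp2, the other PRC2.2 cofactor, varied least, with 96.0 to 118.6 CPM over the 11 libraries. The genotype means were 105 ± 2 in WT, 98.7 ± 3.7 in Asxl1-/- (SD, n = 2), 113 ± 6 in Jak2V617F and 112 ± 8 in Asxl1-/-Jak2V617F. It passed in none of the 5 comparisons (in Jak2V617F against WT it read 0.11 ± 0.07, adjusted p = 0.223). With library totals Asxl1-/- against WT read -0.25 (adjusted p = 0.046), and with the gene length trend removed Jak2V617F against WT read 0.23 (adjusted p = 0.0263). Mtf2 exceeded Jarid2 per length by 1.94 to 2.12 times in WT, 2.202 and 2.446 in Asxl1-/-, 1.72 to 1.86 in Jak2V617F and 2.104 to 2.190 in Asxl1-/-Jak2V617F. Only the Jak2V617F libraries lay below the WT range (exact permutation p = 0.1, adjusted p = 0.143). The Asxl1-/- libraries lay above it, with the same exact p.

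**Figure D4:**
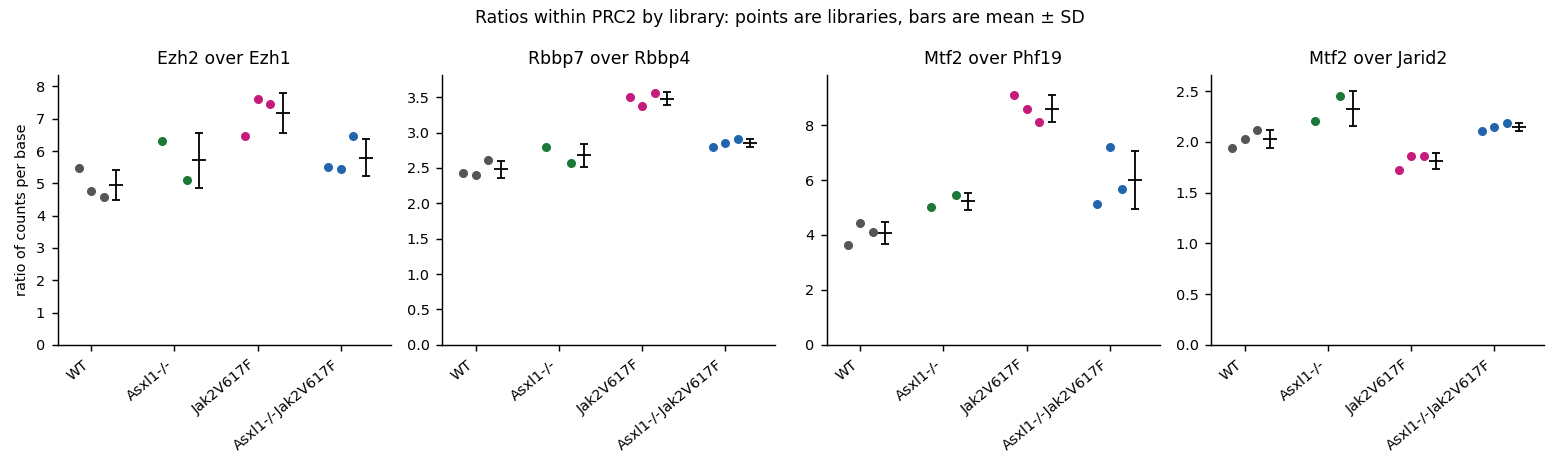
Ratios of counts per base of gene model within each library for 4 pairs of members, with 1 point per library and the mean ± SD of each genotype beside it, on axes that start at 0. The 3 Jak2V617F libraries are outside the range of the other 8 in each panel: higher for Ezh2 over Ezh1, Rbbp7 over Rbbp4 and Mtf2 over Phf19, and lower for Mtf2 over Jarid2.

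Differences of Asxl1-/- from WT followed gene length. Over 7981 protein-coding genes with a mean log2 CPM over 4, Spearman's rho of log2 fold change and gene model length was -0.60. The median log2 fold change was 0.36 in the shortest of 4 equal bins of genes by length and -0.17 in the longest. The members' gene models run from 2909 bases (Rbbp7) to 9851 bases (Aebp2). With the trend removed, Rbbp7 read 0.23 (adjusted p = 0.062) and Rbbp4, at 8744 bases, read 0.51 (adjusted p = 0.00418). Jarid2, at 9715 bases, read -0.02 in place of -0.27, and Phf19, at 5039 bases, read -0.41 (adjusted p = 0.0921). The trend was weaker in Asxl1-/-Jak2V617F against WT (rho = -0.31) and Jak2V617F against WT (rho = -0.11), and near zero in Asxl1-/-Jak2V617F against Jak2V617F (rho = -0.03). Between Asxl1-/-Jak2V617F and Asxl1-/- it had the other sign (rho = 0.49). The rho values are descriptions across genes, which are not independent replicates, and whether library preparation, RNA quality or genotype goes with the trend was not tested.

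**Figure D5:**
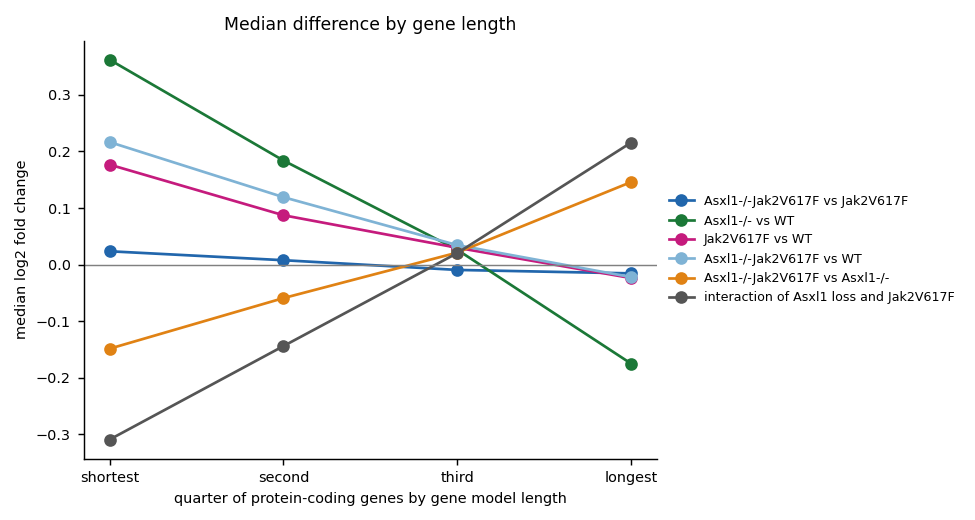
Median log2 fold change of protein-coding genes in 4 equal bins of gene model length, for 5 comparisons and the interaction, with 1 line each. The line of Asxl1-/- against WT falls from 0.36 in the shortest bin to -0.17 in the longest, while that of Asxl1-/-Jak2V617F against Jak2V617F stays between -0.02 and 0.02.

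Enzymes that oppose PRC2 or mark other lysines were read from the same fit. Of 4 genes for removal or competing acetylation of the lysine 27 mark, all 4 fell in Asxl1-/- against WT, beside 11.2% of all genes: the acetyltransferase genes Crebbp (-0.56 ± 0.13, adjusted p = 0.0112) and Ep300 (-0.42 ± 0.12, 0.0264), the X-linked demethylase gene Kdm6a (-1.0 ± 0.22, 0.0113) and Kdm6b (-0.51 ± 0.13, 0.0152). All 5 genes of lysine 36 methyltransferases fell there, with Ash1l at -1.02 ± 0.15 and Setd2 at -0.61 ± 0.10. Without Asxl1-/- 1 the counts were 0 of 4 and 1 of 5, without Asxl1-/- 2 they were 2 and 3, and without WT 2 they were 2 and 4. With the gene length trend removed 1 of 4 and 2 of 5 passed, and with a sex term 2 of 4 and 2 of 5. The Kdm6a call was lost without Asxl1-/- 1 (-0.91, adjusted p = 0.119) or Asxl1-/- 2 (-1.08, 0.0549), and that of Setd2 without Asxl1-/- 1 (-0.60, 0.0547). Crebbp lost its call without Asxl1-/- 1 (-0.47, adjusted p = 0.139), Kdm6b without Asxl1-/- 1 (-0.37, 0.189) or WT 2 (-0.47, 0.0505), and Ep300 without Asxl1-/- 1 (-0.32, 0.247), Asxl1-/- 2 (-0.50, 0.0679), WT 2 (-0.40, 0.0727) or WT 3 (-0.38, 0.0766). With a sex term Kdm6a read -0.13 (adjusted p = 0.616). In Jak2V617F against WT 1 gene of each list fell, the demethylase gene Kdm6b (-0.58 ± 0.11, adjusted p = 0.000903) and the lysine 36 enzyme gene Nsd2 (-0.32 ± 0.07, adjusted p = 0.0019). Of all genes 29.2% were called lower in that comparison. With a sex term 3 of 4 and 2 of 5 fell there, and with the length trend removed 1 of the 5 rose and 1 fell.

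Kdm6b (0.32 ± 0.11, adjusted p = 0.036) and Nsd2 (0.24 ± 0.07, adjusted p = 0.0123) rose and Nsd3 (-0.28 ± 0.09, adjusted p = 0.024) fell in Asxl1-/-Jak2V617F against Jak2V617F. There 1 of 4 and 2 of 5 genes of the lists were called, beside 44.3% of all genes. With library totals 0 of the 4 were called and 2 of the 5 fell, Nsd2 reading 0.13 (adjusted p = 0.144) and Kdm6b 0.20 (0.173). Nsd2 lost its call without Asxl1-/-Jak2V617F 1 (0.21, adjusted p = 0.0507). Nsd3 lost it without Asxl1-/-Jak2V617F 1 (-0.23, adjusted p = 0.0959), Asxl1-/-Jak2V617F 2 (-0.29, 0.0527), Jak2V617F 1 (-0.28, 0.0518) or Jak2V617F 2 (-0.26, 0.0588), or with a sex term (-0.25, 0.075). Kdm6b lost it without Asxl1-/-Jak2V617F 1 (0.34, adjusted p = 0.0637), Asxl1-/-Jak2V617F 3 (0.20, 0.138), Jak2V617F 1 (0.35, 0.0527), Jak2V617F 2 (0.29, 0.0957) or Jak2V617F 3 (0.29, 0.0998). So it did with median-of-ratios scaling (0.29, adjusted p = 0.0507), a replicate block (0.31, 0.0503), a sex term (0.30, 0.0872) or the compared genotypes alone (0.32, 0.0591).

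Of 20 developmental genes known as PRC2 targets, 9 passed the filter on low counts, which a gene can pass through the group where it is high. In Jak2V617F against WT, 1 of the 9 rose and 7 fell, beside 24.4% higher and 29.2% lower calls among all genes. The 1 that rose was Cdkn2b (3.72 ± 0.87). Its mean was 0.299 CPM over all libraries, and it was at 0 in WT 2 and Asxl1-/- 1. As a gene near the filter's floor that is high in Jak2V617F, its calls carry no weight here. Among those that fell were the homeobox genes Hoxa9 (-1.60 ± 0.20), Hoxa7 (-1.68 ± 0.22) and Hoxb4 (-1.68 ± 0.24) and the RNA-binding gene Igf2bp2 (-2.17 ± 0.31). Against Jak2V617F, 6 rose and 1 fell in Asxl1-/-Jak2V617F, with Hoxa9 at 1.26 ± 0.20, Hoxb4 at 1.31 ± 0.24 and Igf2bp2 at 2.29 ± 0.31. Of all genes 24.5% were called higher and 19.8% lower in that comparison. The summed level of all 20 was 47.4 to 56.2 CPM in WT, 38.9 to 40.3 in Asxl1-/-, 14.9 to 18.5 in Jak2V617F and 34.4 to 48.5 in Asxl1-/-Jak2V617F. Gene counts do not show the histone mark at these genes, and samples of the mark were not analysed here.

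Genes of proliferation moved in both directions in Jak2V617F against WT: 8 of 17 rose and 4 fell (9 and 3 with library totals or median-of-ratios scaling). Of all genes 24.4% were called higher and 29.2% lower there. The replication helicase genes Mcm4 (0.58 ± 0.08) and Mcm2 (0.52 ± 0.09) rose, and the E2F genes E2f8 (-0.53 ± 0.08) and E2f2 (-0.92 ± 0.14) fell. Against Jak2V617F, 5 of the 17 were higher and 1 lower in Asxl1-/-Jak2V617F, with E2f8 at 0.49 ± 0.08, E2f2 at 0.72 ± 0.14 and the kinase gene Cdk1 at 0.31 ± 0.08. With library totals that split was 2 higher and 7 lower, and with median-of-ratios scaling 5 and 3. With TMM 24.5% of all genes were called higher and 19.8% lower in this comparison. Cdk1 did not pass with library totals (0.20, adjusted p = 0.0648). Of the 3 members with an E2F word in the printed promoters, Suz12 rose and Phf19 fell in Jak2V617F against WT. Ezh2 read 0.19 ± 0.09 and did not pass, though it did in 5 alternatives. Whether E2F factors have a part in these differences was not tested.

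Across the 11 libraries the members did not vary as 1 block. The highest Pearson r of log2 CPM among the 45 pairs was 0.80 for Mtf2 and Phf19, followed by 0.73 for Ezh2 and Eed. Eed ran against Phf19 and Mtf2 (r = -0.79 each), and Ezh1 against Rbbp7 (-0.79). Among 9969 protein-coding genes with a mean CPM of 5 or more, the patterns most like Ezh2 were those of Cep57 (r = 0.97), Lss (0.97) and Stxbp4 (0.96). For Phf19 they were Foxred2, Anks1 and Kif16b (r = 0.98, 0.98 and 0.97), and for Ezh1 Atp6v1g2, Ip6k2 and Gm20605 (r = 0.92 each). These r values are descriptions over 11 libraries that share genotype, scaling and the split of Jak2V617F from the rest.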

How the data were processed

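The authors deposited 1 table of raw counts, with an Ensembl gene per row, a library per column, mm10 coordinates and a gene model length in bases. HISAT2 2.0.5, featureCounts 1.5.0-p3 and DESeq2 1.16.1 appear in the submitters' processing notes without roles or order. The sources used here give neither the strand setting nor the handling of reads with several matches. The members and gene lists were chosen with earlier results of these data known.

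A single model of genotype was fitted to all 11 libraries in edgeR 4.0.16 (R 4.3.3): filterByExpr by group, TMM, robust quasi-likelihood test, Benjamini-Hochberg adjustment over 16262 genes, threshold 0.05. The SE is the log2 fold change over the square root of F. The test was also run on simulated counts that held no gene length trend, no sex difference and few changed genes. That run therefore does not bear on how those features affect the calls. Genes named from a pathway list are among its 4 with the smallest adjusted p in that comparison, or go against the list's main direction. Not every such gene is named. As the labels do not call replicates separate animals, the p-values reflect only how far these samples spread, and that spread may be technical. The 10 within-group pairs of libraries differed by 7.51 to 34.4 times sampling noise, as variance over the tested genes. Separate preparations from the same animal could also give such values. Each library was counted as a sample, and these values do not show separate animals. Alternatives were median-of-ratios scaling, no filter, a filter of CPM over 1 in 3 libraries, a replicate block, a sex term, the compared genotypes alone, DESeq2 1.42.0 and leaving out each library. Library totals and removal of the gene length trend were added after seeing the data. Sequences are from RefSeq. Accessibility and histone mark samples were not analysed here.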

Additional observations from a re-analysis of the deposited data

Results flagged for a closer look

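The effect of Asxl1 loss differed between the Jak2V617F and WT backgrounds for 5 members, by the interaction term of edgeR's quasi-likelihood test (adjusted over 16262 genes, of which 41.6% passed). Phf19 had the widest difference, 1.44 on the log2 scale: it read -0.45 ± 0.16 for Asxl1 loss on WT and 0.99 ± 0.14 on Jak2V617F. Mtf2 differed by 0.54 and Jarid2 by 0.49. For Eed the difference was -0.42 and for Rbbp7 -0.48. The Asxl1-/- group has 2 libraries, both with Y-linked reads, and the sex term left Phf19 alone past the threshold (1.38, adjusted p = 0.027). No genotype had 4 or more libraries, so single libraries were not tested as outliers.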

How the results depend on the processing

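Of the 60 differences of members, 18 were smaller than their SE, and 17 of these changed sign under at least one alternative. The calls of Phf19 and Mtf2 in Jak2V617F against WT and in Asxl1-/-Jak2V617F against Jak2V617F, of Suz12 and Rbbp7 in Jak2V617F against WT, of Rbbp7 in Asxl1-/-Jak2V617F against WT, and of Phf19 in the interaction passed in every alternative run. The number of members called in Asxl1-/-Jak2V617F against Jak2V617F was 6, and 3 with no filter and 2 with a sex term. In Asxl1-/- against WT it was 2, and 0 with a sex term, 4 with library totals, 1 with the gene length trend removed and 4 in DESeq2. In Asxl1-/-Jak2V617F against WT it was 3, and 1 with the compared genotypes alone. In Asxl1-/-Jak2V617F against Asxl1-/- it was 1, and 0 with no filter, with a sex term and with the compared genotypes alone, but 2 with library totals and in DESeq2. The interaction count was 5, and 1 with a sex term. The labels do not say whether replicate numbers mark shared animals or days. Same-numbered libraries deviated together in 4 of 15 pairs (r over 0.1, at most 0.17), and differently numbered ones did so too, as Jak2V617F 3 and WT 1 (r = 0.24). With a replicate block the count in Asxl1-/-Jak2V617F against Asxl1-/- was 0, and the block changed no other count by over 1.5 times. Leaving out 1 library gave 2 to 6 calls in Asxl1-/-Jak2V617F against Jak2V617F, 0 to 2 in Asxl1-/- against WT, 4 to 6 in Jak2V617F against WT, 1 to 3 in Asxl1-/-Jak2V617F against WT, 0 in Asxl1-/-Jak2V617F against Asxl1-/- and 4 to 5 in the interaction. Counts fell by over 1.5 times in Asxl1-/-Jak2V617F against Jak2V617F without Asxl1-/-Jak2V617F 1 (3), Asxl1-/-Jak2V617F 2 (2), Jak2V617F 2 (2) or Jak2V617F 3 (3), in Asxl1-/- against WT without Asxl1-/- 1 (0), Asxl1-/- 2, WT 2 or WT 3 (1 each), and in Asxl1-/-Jak2V617F against WT without Asxl1-/-Jak2V617F 1, Asxl1-/-Jak2V617F 3, WT 2 or WT 3 (1 each). Without one Asxl1-/- library the other is assumed to vary like the other groups. Signs turned for Eed in Asxl1-/- against WT (-0.020 with a sex term, -0.034 with library totals, from 0.13) and Aebp2 in Asxl1-/- against WT (0.17 with the length trend removed, from -0.09). With that trend removed Nsd2 and Nsd1 in Asxl1-/- against WT turned to 0.067 and 0.029 (from -0.41 and -0.47). The log2 ratio of Ezh2 to Ezh1 in Asxl1-/-Jak2V617F against Asxl1-/- was 0.026, ran from -0.13 to 0.18 when 1 library was left out, and turned to -0.054 without Asxl1-/-Jak2V617F 3 and -0.13 without Asxl1-/- 2. The causes were not tested. The sex term is estimated through the Jak2V617F libraries alone. Depth was alike in all libraries, and Phf19, with 143 to 467 reads, is the least precise member.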
